A study of Mus musculus with 6 samples.

Results

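The genes of the tricarboxylic acid (TCA) cycle and of mitochondrial fatty acid oxidation were examined in bone-marrow-derived macrophages (BMDMs) that lack CITED2, a nuclear coregulator of transcription. The group holds 38 named genes among the 22248 genes of the deposited expression matrix, and they were chosen by gene name. It comprises 16 TCA cycle enzymes, 6 enzymes through which pyruvate enters or leaves the cycle, and 16 genes of fatty acid oxidation. The 16 TCA cycle enzymes include *Idh1*, *Mdh1* and *Aco1*, which are cytosolic forms. Control BMDMs came from *Lyz2cre* mice and CITED2-deficient BMDMs from *Cited2 fl/fl*:*Lyz2cre* mice, with 3 libraries in each group. Both groups were of the C57BL/6 strain, both carried the Cre allele, and both were labelled as 10 weeks of age. The cells were grown from bone marrow with macrophage colony-stimulating factor and were not stimulated. Cre is made from the *Lyz2* locus, which is active in macrophages and granulocytes, so the deletion is limited to cells that used that locus. Nothing in the labels says whether the 3 libraries of a group came from separate mice, so the p-values measure the spread between these libraries.

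In the TCA cycle, acetyl-CoA is joined to oxaloacetate by citrate synthase, and the resulting carbon skeleton is oxidized stepwise to return oxaloacetate, with the electrons passed to NADH and to ubiquinone. Fatty acids reach the same acetyl-CoA pool after they are carried into mitochondria as carnitine esters and shortened by repeated rounds of dehydrogenation, hydration, oxidation and thiolysis. In macrophages both routes are remodeled with activation state, and inflammatory activation is known for breaks in the cycle at isocitrate dehydrogenase and at the succinate step.

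Expression was given as FPKM (fragments per kilobase of transcript, scaled to the library total). Differences are log2 fold changes of FPKM + 1 from limma, in which a negative value means lower in CITED2-deficient BMDMs, and 0.05 was the threshold for the adjusted p. The recovered depth was 17289286 to 18952077 fragments in control libraries and 22583995 to 26100410 in CITED2-deficient libraries. The targeted gene *Cited2* stood at 71.7, 79.3 and 75.5 FPKM in the controls and was low in each CITED2-deficient library (9.27, 7.22 and 7.53), a log2 fold change of -3.09.

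Macrophage markers were abundant in every library, with a summed FPKM over 8 genes of 5624 to 5694 in controls and 5287 to 5367 in CITED2-deficient BMDMs. Within that list 5 genes were lower, 1 was higher and 2 did not pass, and *Itgam* (means of 89.7 and 50.9 FPKM) and *Lyz2* (31.3 and 9.75) fell while *Fcgr1* rose (172 and 482). Fibroblast markers were higher for all 8 tested genes of a list of 10, with a summed FPKM of 51.0 to 62.5 in controls and 198 to 585 in CITED2-deficient libraries, of which replicate 1 was the highest. Of 9 granulocyte precursor markers 7 were lower and 1 was higher, with a sum of 744 to 813 FPKM in controls and 662 to 780 in CITED2-deficient libraries. *Mpo*, *Elane* and *Prtn3*, granule enzymes of early precursors, had mean FPKM of 16.2, 12.4 and 14.3 in controls and 1.954, 2.15 and 2.52 in CITED2-deficient BMDMs. The marker that was higher, *Ltf*, had means of 94.3 and 177 FPKM. *S100a9*, the marker with the highest mean, did not pass (270 and 251). The sum of the erythroid and megakaryocyte markers was 312 to 341 FPKM in controls and 74.7 to 84.4 in CITED2-deficient BMDMs, nearly all of it from *Pf4* (means of 320 and 75.4), while *Hba-a1*, *Hbb-bs* and *Alas2* were at or near 0. *Ppbp*, the only other tested gene of that list, went the other way and was higher (means of 2.26 and 4.17 FPKM). None of the 5 dendritic cell markers passed the expression filter, and the 8 T and B lymphocyte markers summed to at most 10.5 FPKM in any library. The part of the fibroblast, granulocyte and megakaryocyte markers in the results below was not tested.

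All 38 genes passed the filter of a mean FPKM of at least 1. In limma 20 were lower in CITED2-deficient BMDMs, 2 were higher and 16 did not pass the threshold. The lower genes were 52.6% of the group, against 34.6% of the 11687 genes tested, and the higher genes were 5.26% against 16.7%. The median log2 fold change was -0.16, and that of all tested genes was -0.10. After each library was scaled to its median ratio, which brings the median of all genes to -0.0069, 15 genes (39.5%) were lower and 4 (10.5%) were higher, against 21.3% and 23.1% of all genes. The groups of libraries did not overlap for 23 lower and 3 higher genes, against 40.9% and 19% of all genes. Without CITED2-deficient replicate 1, the library highest in fibroblast markers, 19 genes were lower and 1 was higher, against 31.7% and 15% of all genes in that fit. In bulk RNA, fewer cells of a type and less RNA per cell cannot be told apart.

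**Figure D1:**
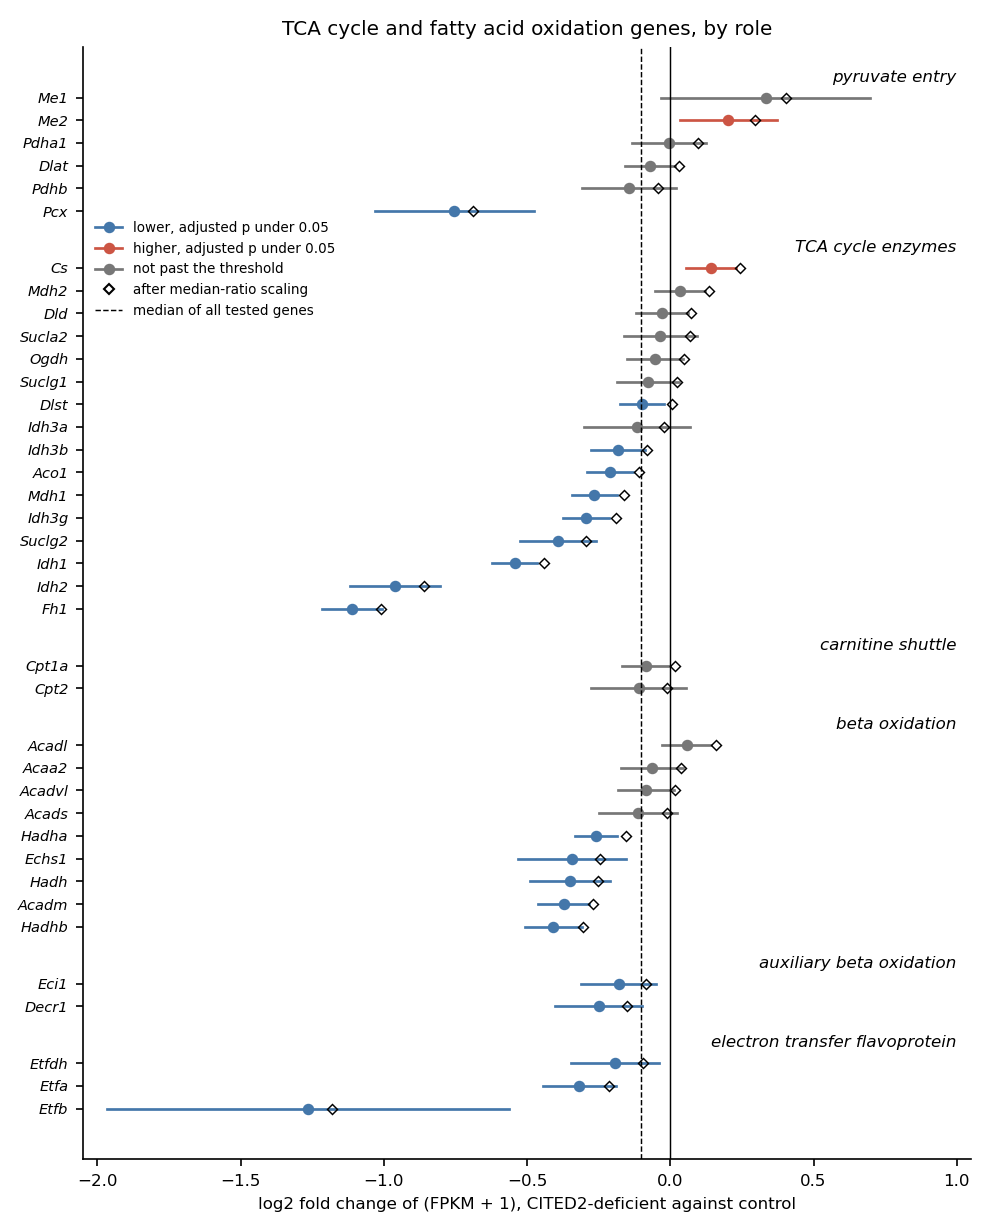
Log2 fold change of FPKM + 1 (horizontal axis) for each of the 38 genes, grouped by role, with filled points for the limma estimate, lines for its 95% confidence interval, open diamonds for the estimate after median-ratio scaling, and a dashed line at the median of all tested genes. *Fh1*, *Idh2* and *Etfb* lie farthest to the left, and *Cs* and *Me2* are the 2 genes that passed as higher.

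The sum of the 38 FPKM values was 1909, 1927 and 1903 in control libraries and 1650, 1574 and 1614 in CITED2-deficient libraries. All 3 CITED2-deficient sums lay below all control sums, and the mean fell by 15.7%, and after median-ratio scaling it fell by 9.41%. *Idh1* was the most abundant of the genes, and without it the sum fell by 13.1%. By role, the change of the mean sum was -17.7% for TCA cycle enzymes, -4.00% for pyruvate entry, -6.40% for the carnitine shuttle, -14.1% for beta oxidation, -15.05% for the 2 auxiliary enzymes and -22.8% for the electron transfer flavoprotein genes. The TCA cycle sum includes the cytosolic *Idh1*, *Mdh1* and *Aco1*. Their means went from 268, 113 and 60.4 FPKM to 184, 93.8 and 52.0, so much of that fall lay outside the mitochondrial cycle. FPKM depends on the transcript lengths of the annotation, so the share of each gene in a sum is approximate.

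The TCA cycle genes did not all move one way. Of 16 enzymes, 9 (56.25%) were lower, 1 (6.25%) was higher and 6 did not pass, against 34.6% and 16.7% of all genes. The median log2 fold change was -0.15. The cytosolic *Idh1*, *Mdh1* and *Aco1* were among the 9. After median-ratio scaling 7 were lower and 2 were higher, with a median of -0.050, against 21.3% lower and 23.1% higher of all genes. Fumarase and the NADP-dependent isocitrate dehydrogenases fell most, while citrate synthase rose. *Fh1* (ENSMUSG00000026526, chr1:175600374-175625635, minus strand, mm10), fumarase, which hydrates fumarate to malate, had FPKM of 57.8, 63.3 and 57.8 in control libraries and 26.9, 26.7 and 27.5 in CITED2-deficient libraries. Each CITED2-deficient value was less than any control value by far more than the replicates differed. The log2 fold change was -1.11 (standard error, SE, 0.05, limma adjusted p = 1.1e-07), and only 132 of the tested genes had a lower one. It ranged from -1.13 to -1.07 when each library was left out in turn. The 250 bases before and 50 bases after the RefSeq start of *Fh1* (GRCm38.p6, chr1:175625586-175625885, minus strand) are printed because it had the largest fall of the TCA cycle genes, in lower case because none of the motifs searched below was found.

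Fh1: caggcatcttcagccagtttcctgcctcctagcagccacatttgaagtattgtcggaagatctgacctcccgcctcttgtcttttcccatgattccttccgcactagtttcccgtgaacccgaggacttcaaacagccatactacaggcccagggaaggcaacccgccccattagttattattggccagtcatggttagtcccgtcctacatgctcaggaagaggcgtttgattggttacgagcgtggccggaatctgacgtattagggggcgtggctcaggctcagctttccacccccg

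*Idh2* (ENSMUSG00000030541, chr7:80094846-80115392, minus strand, mm10), the mitochondrial NADP-dependent isocitrate dehydrogenase, had FPKM of 53.6, 62.7 and 58.2 in controls and 32.1, 27.8 and 28.3 in CITED2-deficient BMDMs. The groups were well apart, and the mean went from 58.2 ± 4.57 to 29.4 ± 2.34 (SD, n = 3 each). The log2 fold change was -0.96 (SE 0.07, limma adjusted p = 4.8e-06). *Idh1* (ENSMUSG00000025950, chr1:65158616-65186500, minus strand), its cytosolic counterpart, had 263, 271 and 271 FPKM in controls and 192, 177 and 182 in CITED2-deficient BMDMs. These groups were also apart, with a log2 fold change of -0.54 (SE 0.03, limma adjusted p = 2.1e-06). The promoter window of *Idh2* (GRCm38.p6, chr7:80115301-80115600, minus strand) is given beside that of *Fh1*, as the gene with the next largest fall in the cycle, and it also held no match.

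Idh2: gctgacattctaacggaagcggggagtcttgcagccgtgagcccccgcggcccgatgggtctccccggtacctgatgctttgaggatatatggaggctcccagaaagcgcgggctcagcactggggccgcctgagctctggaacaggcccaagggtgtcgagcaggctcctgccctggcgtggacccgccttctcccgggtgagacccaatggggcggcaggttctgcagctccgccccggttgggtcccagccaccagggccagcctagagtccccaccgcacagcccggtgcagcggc

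The NAD-dependent isocitrate dehydrogenase, which catalyzes the regulated oxidative step of the cycle, is built from the products of *Idh3a*, *Idh3b* and *Idh3g*. *Idh3g*, a regulatory subunit, went from 84.0 ± 1.77 to 68.3 ± 1.98 FPKM (log2 fold change -0.29, limma adjusted p = 0.00014). *Idh3b* was lower by less (-0.18), and it was no longer called after median-ratio scaling. *Idh3a*, the catalytic subunit, did not pass, with values of 12.1, 11.7 and 11.6 against 10.8, 9.60 and 12.1 that overlapped and a 95% interval of its log2 fold change from -0.30 to 0.068. The Idh3a to Idh3g ratio overlapped between groups.

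Of the genes for succinyl-CoA synthetase, which makes a nucleoside triphosphate as it releases succinate, 1 of 3 passed as lower. *Suclg2*, the subunit that uses GDP, had 15.2, 16.3 and 14.9 FPKM in controls and 11.98, 11.3 and 11.4 in CITED2-deficient BMDMs, with no overlap (log2 fold change -0.39, SE 0.06, limma adjusted p = 0.00052). *Sucla2*, the subunit that uses ADP, was at -0.034 with a 95% interval from -0.16 to 0.093, and *Suclg1*, the subunit common to both forms, was at -0.077 with an interval from -0.19 to 0.032. The ratio of *Suclg2* to *Sucla2* was 0.3005, 0.364 and 0.327 in controls and 0.248, 0.248 and 0.260 in CITED2-deficient libraries, so this shift stood within each library and did not depend on scaling between them.

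Of the malate dehydrogenases, which make oxaloacetate, the cytosolic one passed as lower. *Mdh1*, the cytosolic enzyme of the malate-aspartate shuttle, went from 113 ± 1.12 to 93.8 ± 3.49 FPKM (log2 fold change -0.26, limma adjusted p = 0.00024). *Mdh2*, the mitochondrial enzyme of the cycle, had 98.8, 99.4 and 96.6 against 99.5, 96.7 and 106 FPKM, values that overlapped, with a 95% interval of the log2 fold change from -0.054 to 0.12. It did pass as higher after median-ratio scaling (0.14, limma adjusted p = 0.020) and in limma-voom on recovered fragments (0.14, adjusted p = 0.014). *Aco1*, the cytosolic aconitase that also serves as an iron-regulatory protein, was lower at 52.0 ± 1.36 against 60.4 ± 0.964 FPKM (-0.21, limma adjusted p = 0.0011). The call of *Aco1* was lost in limma-voom (adjusted p = 0.051).

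*Cs* (ENSMUSG00000005683, chr10:128337734-128362479, plus strand, mm10), citrate synthase, which admits acetyl-CoA to the cycle, was the TCA cycle enzyme that passed as higher. Its FPKM was 48.1, 46.9 and 45.7 in controls and 53.4, 51.1 and 51.2 in CITED2-deficient BMDMs. The groups did not overlap, and the rise was small, with a log2 fold change of 0.14 (SE 0.04, limma adjusted p = 0.012). The oxoglutarate dehydrogenase complex, which oxidizes oxoglutarate to succinyl-CoA, showed small differences. *Dlst*, its transferase, passed as lower (-0.098, limma adjusted p = 0.036) but stood at 0.0045 after median-ratio scaling. *Ogdh* (-0.054) and *Dld* (-0.028), the oxidase and the lipoamide dehydrogenase, did not pass.

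**Figure D2:**
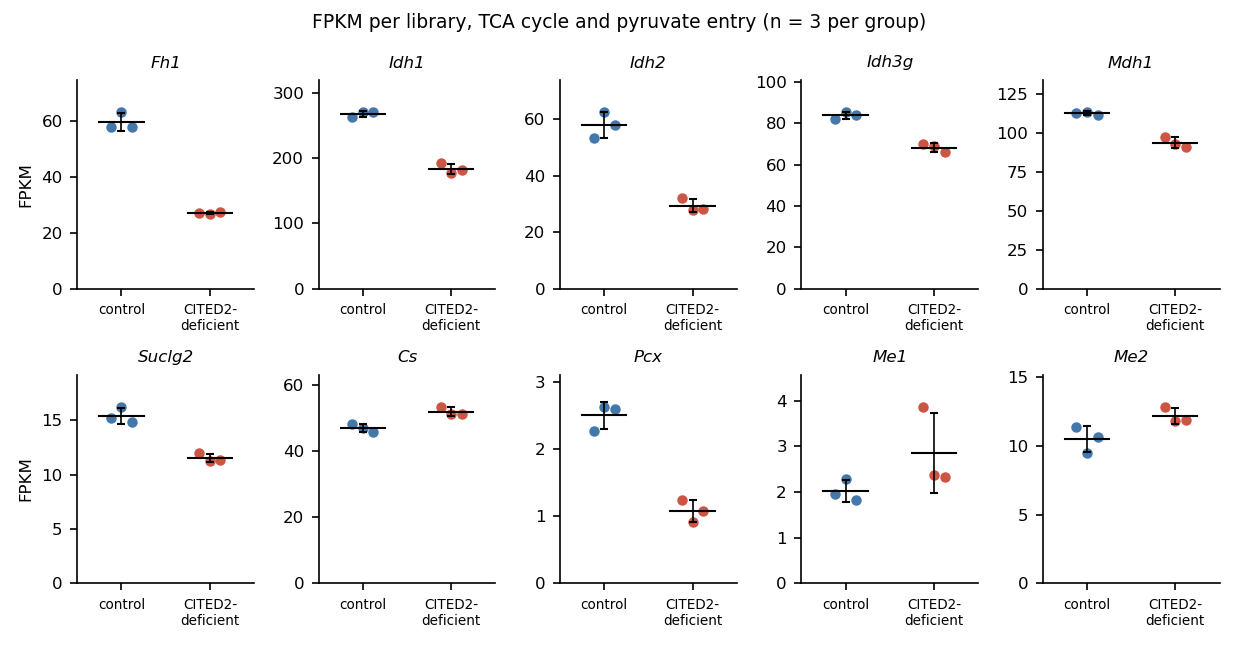
FPKM (vertical axis, from 0, scaled for each gene) of 10 TCA cycle and pyruvate entry genes in control and CITED2-deficient libraries, with 1 point per library, bars at the mean and whiskers of 1 SD (n = 3 per group). The CITED2-deficient libraries of *Fh1* and *Idh2* sit at 26.7 to 27.5 and 27.8 to 32.1 FPKM, below all controls, while those of *Cs* sit above all controls.

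Of the 6 enzymes at the entry of pyruvate, 1 (16.7%) was lower, 1 (16.7%) was higher and 4 did not pass, against 34.6% and 16.7% of all genes. *Pcx*, pyruvate carboxylase, which supplies oxaloacetate, was weakly expressed at 2.26, 2.63 and 2.60 FPKM in controls and 1.23, 0.913 and 1.08 in CITED2-deficient BMDMs. The groups did not overlap, and the log2 fold change was -0.75 (SE 0.12, limma adjusted p = 0.00086), which understates the change of so low a gene. At a filter of a mean FPKM of at least 5 it was not tested. The pyruvate dehydrogenase subunits, which make acetyl-CoA from pyruvate, were *Pdha1* (-0.0039, 95% interval -0.13 to 0.13), *Pdhb* (-0.14, -0.31 to 0.020) and *Dlat* (-0.071, -0.16 to 0.016), and none passed. *Pdhb* passed as lower in limma without control replicate 2 (-0.22).

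The malic enzymes, which turn malate into pyruvate, had higher means. *Me2*, the mitochondrial NAD-dependent form, had 11.4, 9.49 and 10.6 FPKM in controls and 12.9, 11.8 and 11.9 in CITED2-deficient BMDMs (log2 fold change 0.20, limma adjusted p = 0.048). The groups did not overlap, but the call was lost in 5 of the 6 fits that left out 1 library, all but the one without control replicate 1. *Me1*, the cytosolic NADP-dependent form, had 1.96, 2.29 and 1.82 against 3.87, 2.38 and 2.33 FPKM, with groups that barely parted, and did not pass (0.33, 95% interval -0.032 to 0.70). CITED2-deficient replicate 1, which was also highest in fibroblast markers, held its highest value, and without that library the estimate was 0.15. In limma-voom on recovered fragments it passed as higher, at 0.58 (adjusted p = 0.027).

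For fatty acid oxidation, 10 of 16 genes (62.5%) were lower, 6 did not pass and none passed as higher in limma. Of all genes, 34.6% were lower and 16.7% higher. The median log2 fold change of the 16 was -0.22. After median-ratio scaling 7 (43.75%) were lower and 1, *Acadl*, was higher, against 21.3% and 23.1% of all genes. The carnitine shuttle carries long acyl chains into mitochondria, and its genes within the group, *Cpt1a* and *Cpt2*, did not pass the threshold. The carrier of the shuttle, *Slc25a20*, is outside the group and was higher, as given below. *Cpt1a*, the outer-membrane transferase that controls entry, was at 38.8, 39.3 and 40.0 FPKM in controls and 36.9, 37.8 and 36.5 in CITED2-deficient BMDMs (log2 fold change -0.085, 95% interval -0.17 to 0.00033). *Cpt2*, the inner-membrane transferase, was at -0.11 (-0.28 to 0.055).

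Of the 4 acyl-CoA dehydrogenases, which open each round of oxidation, 1 passed as lower. *Acadm* (ENSMUSG00000062908, chr3:153922357-153944632, minus strand, mm10), for medium chains, had 88.6, 84.9 and 85.1 FPKM in controls and 65.5, 64.3 and 69.5 in CITED2-deficient BMDMs. The groups stood well apart (log2 fold change -0.37, SE 0.04, limma adjusted p = 5.7e-05). *Acadvl* (-0.085) for very long chains, *Acads* (-0.11) for short chains and *Acadl* (0.057) for long chains did not pass. The ratio of *Acadm* to *Acadvl* was 2.61, 2.60 and 2.41 in controls and 2.05, 2.03 and 2.16 in CITED2-deficient libraries. The ratio of *Acadl* to *Acadvl* went the other way, from 1.77, 1.92 and 1.70 to 2.03, 1.93 and 2.00, with only a narrow gap between groups. *Acadvl* shares 1151 exonic bases with *Dvl2* on the opposite strand, and the sources used here do not give the strand setting of the counting.

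The hydratase and dehydrogenase steps that follow were lower. *Echs1*, the short-chain enoyl-CoA hydratase, went from 16.3 ± 1.22 to 12.7 ± 1.34 FPKM (log2 fold change -0.34, limma adjusted p = 0.0077). *Hadh*, the short-chain hydroxyacyl-CoA dehydrogenase, went from 12.8 ± 0.552 to 9.83 ± 0.403 (-0.35, limma adjusted p = 0.0014). *Acaa2*, the mitochondrial thiolase for medium chains, did not pass (-0.063, 95% interval -0.17 to 0.045).

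*Hadha* and *Hadhb* encode the alpha and beta subunits of the mitochondrial trifunctional protein, which carries out the last 3 steps on long chains. *Hadha* (ENSMUSG00000025745) had 96.3, 99.7 and 94.4 FPKM in controls and 80.2, 81.4 and 80.4 in CITED2-deficient BMDMs (log2 fold change -0.26, limma adjusted p = 0.00018). *Hadhb* (ENSMUSG00000059447) had 48.3, 47.4 and 47.3 against 37.4, 35.8 and 34.0 FPKM (-0.41, limma adjusted p = 6.1e-05). Neither gene's groups overlapped, and the ratio of *Hadha* to *Hadhb* went from 1.99, 2.10 and 1.99 to 2.15, 2.27 and 2.37. The genes lie head to head on chromosome 5, *Hadha* at chr5:30118304-30155162 on the minus strand and *Hadhb* at chr5:30155248-30184593 on the plus strand. The promoter window of *Hadhb* (RefSeq, GRCm38.p6, chr5:30155003-30155302, plus strand) is printed because it covers the starts of both genes, with the 85 bases between their GENCODE starts in capitals.

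Hadhb: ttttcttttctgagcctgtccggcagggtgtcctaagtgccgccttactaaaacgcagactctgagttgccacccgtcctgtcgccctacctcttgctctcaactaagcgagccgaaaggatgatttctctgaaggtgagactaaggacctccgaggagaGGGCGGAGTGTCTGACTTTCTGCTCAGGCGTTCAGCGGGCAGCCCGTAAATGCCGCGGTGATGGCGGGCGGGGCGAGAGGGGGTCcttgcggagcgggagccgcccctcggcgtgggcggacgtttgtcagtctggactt

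The auxiliary enzymes of unsaturated fatty acids were both lower. *Decr1*, the dienoyl-CoA reductase, went from 16.1 ± 0.955 to 13.4 ± 0.870 FPKM (log2 fold change -0.25, limma adjusted p = 0.012), and *Eci1*, the enoyl-CoA isomerase, from 12.3 ± 0.372 to 10.7 ± 0.343 (-0.18, adjusted p = 0.027). Both calls were lost after median-ratio scaling.

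All 3 genes for the electron transfer flavoprotein and its oxidoreductase, which pass electrons from the acyl-CoA dehydrogenases to ubiquinone, were lower. *Etfa* (ENSMUSG00000032314), the alpha subunit, had 63.7, 69.0 and 66.5 FPKM in controls and 50.9, 50.8 and 57.9 in CITED2-deficient BMDMs, with no overlap (log2 fold change -0.32, SE 0.06, limma adjusted p = 0.0014). *Etfb* (ENSMUSG00000004610), the beta subunit, had 7.08, 11.4 and 9.73 against 6.40, 2.64 and 1.87 FPKM. Its log2 fold change of -1.27 was the lowest of the 38 genes, but with an SE of 0.31 and a 95% interval from -1.97 to -0.56 (limma adjusted p = 0.0080). *Etfb* rested on 27 to 109 fragments per library, CITED2-deficient replicate 1 lay close to the lowest control, and the estimate ranged from -1.66 without that library to -0.98. *Etfb* shares 617 of its 1164 exonic bases with *Gm45233* on the same strand, so its fragments could have been divided between them. *Etfdh*, the oxidoreductase, passed narrowly at -0.19 (limma adjusted p = 0.039) with values of 18.9, 16.8 and 19.0 against 17.0, 15.1 and 15.5 FPKM that overlapped, and it did not pass after median-ratio scaling (adjusted p = 0.26).

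**Figure D3:**
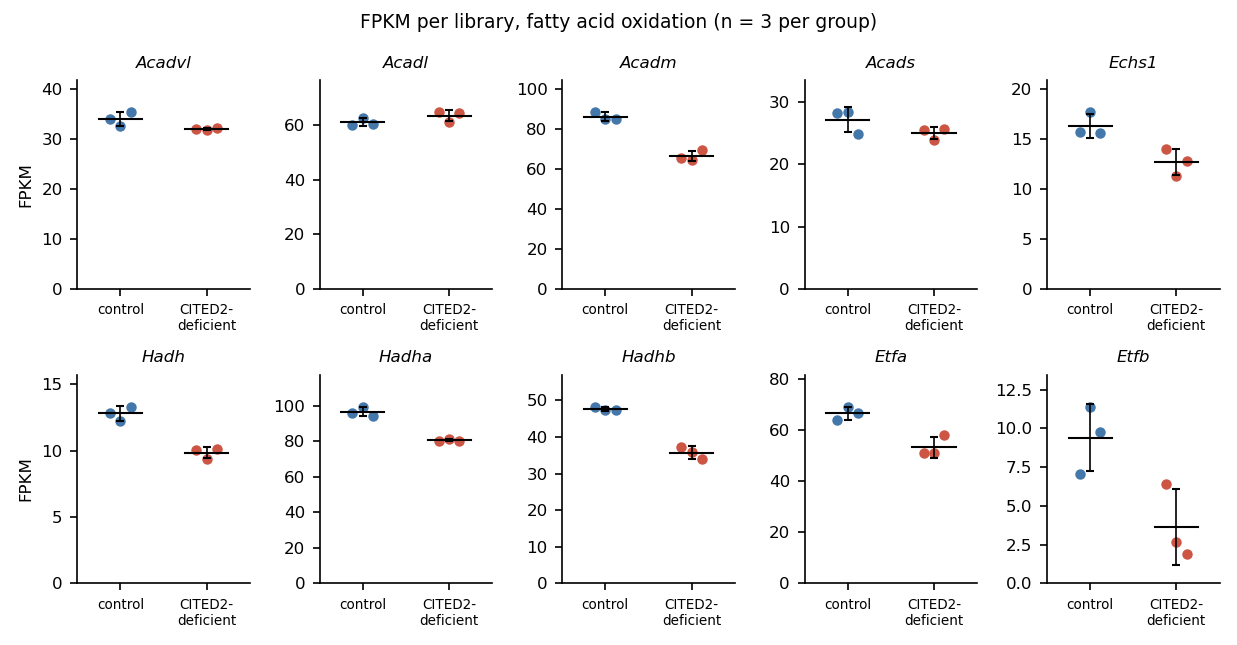
FPKM (vertical axis, from 0, scaled for each gene) of 10 fatty acid oxidation genes in control and CITED2-deficient libraries, with 1 point per library, bars at the mean and whiskers of 1 SD (n = 3 per group). *Acadm*, *Hadha* and *Hadhb* separate the groups with little spread, *Acadl* does not, and *Etfb* varies from 1.87 to 6.40 FPKM within the CITED2-deficient libraries.

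Calls were compared over 16 fits, the one reported and 15 alternatives of scaling, filter, pseudocount, model and libraries left out. In every fit that tested them, 14 genes were lower, namely *Fh1*, *Idh1*, *Idh2*, *Idh3g*, *Suclg2*, *Mdh1*, *Pcx*, *Acadm*, *Hadha*, *Hadhb*, *Hadh*, *Echs1*, *Etfa* and *Etfb*, and 1 gene, *Cs*, was higher. *Pcx* was tested in 14 of the fits. No such count was taken over all genes, so these 14 lower genes and 1 higher gene have no background of their own.

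Ratios between partner enzymes were taken within each library, for pairs chosen with earlier results of these data known. Of the 12 pairs, 7 had groups that did not overlap, 4 with a higher and 3 with a lower ratio in CITED2-deficient BMDMs. For all genes tested singly, the groups did not overlap for 40.9% as lower and 19% as higher. No such share was taken over pairs of other genes, so the 7 have no background of their own. The pair of *Cs* and *Idh1* is not of forms or subunits of one enzyme. It sets a gene called higher against one called lower, each without overlap, so the separation of this ratio follows from the single genes. The log2 ratio of *Cs* to *Idh1* was higher by 0.69 (SE 0.04), with ratios of 0.183, 0.173 and 0.169 in controls and 0.278, 0.289 and 0.281 in CITED2-deficient libraries. The log2 ratio of *Mdh2* to *Mdh1* was higher by 0.30 (SE 0.06), and that of *Hadha* to *Hadhb* by 0.16 (SE 0.05). That of *Idh2* to *Idh1* differed by -0.44 (SE 0.06), that of *Suclg2* to *Sucla2* by -0.39 (SE 0.08) and that of *Acadm* to *Acadvl* by -0.29 (SE 0.05). For each of the 7 the exact two-sided permutation p was 0.1, the smallest that 3 against 3 libraries allow, and 0.17 after adjustment over the 12 pairs, so none could pass. The ratio of *Etfa* to *Etfb* rose in CITED2-deficient replicates 2 and 3 to 19.2 and 30.9, but was 7.94 in replicate 1, within the control range of 6.06 to 9.002. The *Me2* to *Me1*, *Cpt2* to *Cpt1a* and *Pdha1* to *Pdhb* ratios overlapped between groups.

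**Figure D4:**
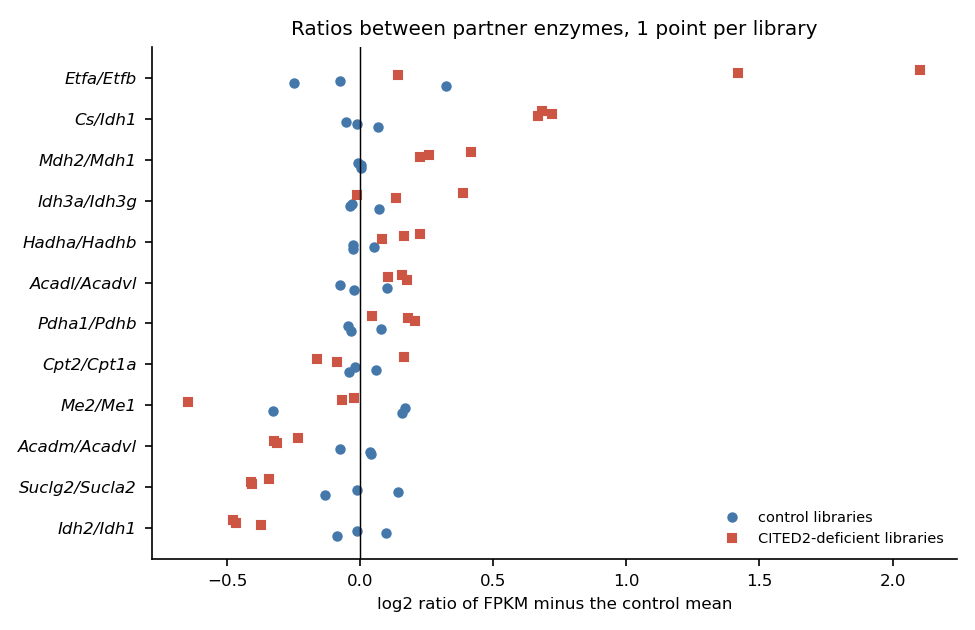
Log2 ratio of the FPKM of 2 partner genes in each library minus the control mean of that ratio (horizontal axis), for 12 pairs, with circles for control and squares for CITED2-deficient libraries. The squares of *Cs* to *Idh1*, a gene called higher over one called lower, lie tightly together above the controls. Those of *Idh2* to *Idh1* lie below the controls, and those of *Etfa* to *Etfb* are widely spread.

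Promoter windows of 300 bases (250 before and 50 after the RefSeq start, GRCm38.p6) were matched for 34 of the 38 genes, and not for *Me2*, *Decr1*, *Acaa2* and *Idh3a*. They were searched on both strands for 4 motifs of factors known to act on mitochondrial genes. The core of the NRF1 site, GCATGCGC, was found in 3 genes, *Acadm*, *Etfa* and *Etfdh*, all of which were lower, and in 2.71% of 32851 windows. Of the 34 genes with a window, 19 were lower. The ETS site CCGGAAGT was found in *Dlst* and *Cpt2*, against 3.89% of all windows. The site of estrogen-related receptors, TCAAGGTCA, was found in 0 genes (0.423% of all windows), as was a direct repeat of AGGTCA with 1 base between (0.0396%). The stretches of 60 bases around the NRF1 core are printed with the matching bases in capitals, since these 3 genes were chosen for the match. They lie at chr3:153944768-153944827 for *Acadm*, chr9:55512315-55512374 for *Etfa* and chr3:79628862-79628921 for *Etfdh*, all on the minus strand.

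Acadm: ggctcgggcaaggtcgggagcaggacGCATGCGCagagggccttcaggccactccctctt

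Etfa: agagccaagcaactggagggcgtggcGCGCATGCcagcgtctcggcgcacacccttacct

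Etfdh: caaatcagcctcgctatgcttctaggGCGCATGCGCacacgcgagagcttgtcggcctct

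The *Etfa* match is on the other strand of the printed sequence, and in *Etfdh* matches on both strands overlap. The matches began 158, 105 and 128 bases before the RefSeq starts of *Acadm*, *Etfa* and *Etfdh*.

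The rest of the pathways was read from 86 further genes, of which 10 were below the filter. Of the 76 tested, 40 were lower, 10 were higher and 26 did not pass, with a median log2 fold change of -0.17. The shares were 52.6% lower and 13.2% higher, against 34.6% and 16.7% of all genes. After median-ratio scaling 23 (30.3%) were lower and 14 (18.4%) were higher, against 21.3% and 23.1% of all genes. Of 19 tested genes of the TCA cycle and its supply, 8 (42.1%) were lower and 3 (15.8%) were higher, near the shares of all genes. *Acod1*, which makes itaconate by decarboxylating cis-aconitate and is known as an inflammatory gene of macrophages, had 0.948, 1.12 and 0.282 FPKM in controls and 12.8, 16.2 and 15.3 in CITED2-deficient BMDMs. It was low in every control and clearly present in every CITED2-deficient library (log2 fold change 3.17, SE 0.18, limma adjusted p = 1.1e-06). The 1 added to FPKM understates the change of so low a gene, and limma-voom on recovered fragments gave 4.55. *Slc25a10*, the mitochondrial dicarboxylate carrier, went from 78.9 ± 1.54 to 49.96 ± 1.02 (-0.65, limma adjusted p = 6.3e-07). *Sdha*, the flavoprotein of succinate dehydrogenase, was lower by less (-0.20, limma adjusted p = 0.00024).

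Among 10 partners and regulators of pyruvate dehydrogenase, 4 (40.0%) were lower and 2 (20.0%) were higher, near the 34.6% and 16.7% of all genes. *Pdk4*, a kinase that inhibits the complex, rose from 1.35, 0.971 and 0.850 FPKM to 4.63, 2.83 and 3.19 (log2 fold change 1.13, SE 0.17, limma adjusted p = 0.00049). Here too the added 1 understates the change, and limma-voom gave 1.84. *Pdk1*, a kinase of the same family, fell from 26.3 ± 1.48 to 19.1 ± 1.56 (-0.45, limma adjusted p = 0.00052). On the FPKM scale the level of *Pdk1* was above that of *Pdk4* in every library. *Pdhx*, the component that binds lipoamide dehydrogenase to the complex, did not pass (-0.15).

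In other mitochondrial oxidation, 10 of 13 tested genes (76.9%) were lower, against 34.6% of all genes, and none was higher. *Acat1*, the acetoacetyl-CoA thiolase of ketone and isoleucine metabolism, fell from 28.9, 31.0 and 30.6 FPKM to 17.3, 17.4 and 18.1, with the groups wide apart (log2 fold change -0.74, SE 0.05, limma adjusted p = 2.1e-06). In peroxisomal oxidation 8 of 12 tested genes (66.7%) were lower and none was higher in limma, and *Abcd2*, a carrier of very long acyl-CoA into peroxisomes, fell from 12.2 ± 1.17 to 5.75 ± 0.508 FPKM (-0.96, limma adjusted p = 2.4e-05). After median-ratio scaling 6 of the 13 mitochondrial and 5 of the 12 peroxisomal genes were lower, and 1 gene of each was higher. Of all genes, 21.3% were lower and 23.1% were higher after that scaling.

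For fatty acid uptake and activation, 7 of 13 tested genes (53.8%) were lower and 4 (30.8%) were higher, against 34.6% and 16.7% of all genes. *Fabp4*, a fatty acid binding protein of adipocytes and macrophages, rose from 22.0 ± 3.01 to 31.0 ± 0.565 FPKM (log2 fold change 0.49, limma adjusted p = 0.0010). *Slc25a20*, the carnitine-acylcarnitine carrier that works between *Cpt1a* and *Cpt2*, was higher at 18.6, 18.4 and 17.2 against 15.0, 15.4 and 15.7 FPKM (0.22, limma adjusted p = 0.0076). *Acsl3*, an acyl-CoA synthetase, was lower (-0.40, limma adjusted p = 0.0067).

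Among 9 tested transcriptional regulators of these pathways, 3 (33.3%) were lower, 1 (11.1%) was higher and 5 did not pass, so the lower share was that of all genes, 34.6%. *Ppard*, a nuclear receptor that activates fatty acid oxidation genes, fell from 30.3, 28.7 and 29.2 FPKM to 13.2, 17.0 and 17.3 (log2 fold change -0.86, SE 0.09, limma adjusted p = 5.5e-05). *Pparg*, the related receptor of lipid storage and alternative activation, rose from 56.4 ± 4.61 to 67.6 ± 2.70 (0.26, limma adjusted p = 0.0054).

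**Figure D5:**
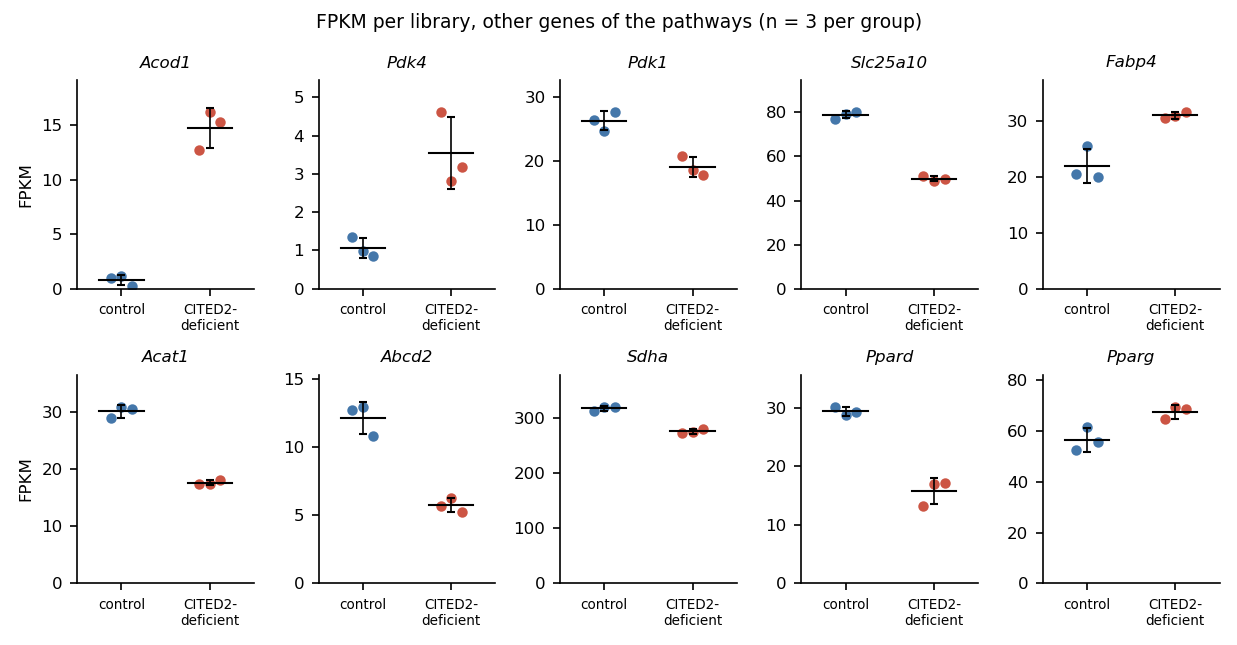
FPKM (vertical axis, from 0, scaled for each gene) of 10 other genes of the pathways in control and CITED2-deficient libraries, with 1 point per library, bars at the mean and whiskers of 1 SD (n = 3 per group). *Acod1* and *Pdk4* are near the bottom of the scale in controls and high in CITED2-deficient libraries, while *Acat1*, *Slc25a10*, *Abcd2* and *Ppard* separate in the other direction.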

How the data were processed

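RNA from 6 BMDM libraries was analysed. The authors removed ribosomal RNA, prepared stranded libraries, aligned reads with STAR (mm10), and deposited per-gene FPKM from Cuffdiff with the GENCODE annotation. The sources used here give no tool versions or annotation release. Fragments were recovered from the FPKM steps with the mean transcript length in GENCODE vM21. Of 22220 matched genes, 21355 (96.1%) were whole within 0.02 in all libraries, and CITED2-deficient libraries were 1.34 times as deep as controls. FPKM are scaled to library totals, so large changes of a few genes can shift all others.

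The 11687 genes whose mean FPKM reached 1 were tested as log2(FPKM + 1) in limma 3.58.1 (R 4.3.3), with trended variances and p-values adjusted over all of them by Benjamini-Hochberg. In simulated data for this comparison (11687 genes, 200 changed) 84% of 1.5-fold and 92% of 2-fold changes were recovered and 2.22% of calls were false. The simulation had no smaller changes and no shift in scaling between groups. In the real data 1950 genes were called higher and 4044 lower, and of the members called lower 4 fell by at least 1.5-fold. The simulated rates therefore do not carry over to most of the calls reported here. Cuffdiff needs alignments and was not repeated. Named are all members and, of the other pathway genes, those past the threshold with an absolute log2 fold change of at least 0.58, the largest rise and fall of each list, and *Sdha*, *Pdhx*, *Acat1* and *Slc25a20*. A further gene under this rule is not reported here. Promoters were printed for large changes (*Fh1* and *Idh2*), for the partner pair of *Hadha* and *Hadhb*, and for the motif match (*Acadm*, *Etfa* and *Etfdh*). The members, lists, pairs and motifs were chosen with earlier results of these data known. The labels give the mice as 10 weeks old and the study's methods give a younger age. Replicate numbers did not pair the samples.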

Additional observations from a re-analysis of the deposited data

How the results depend on the processing

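After median-ratio scaling 4 members were higher, 23 other pathway genes were lower, the log2 ratio of the summed FPKM was -0.14, and *Ogdh* (0.048), *Dlst* (0.0045), *Dld* (0.074), *Suclg1* (0.024), *Sucla2* (0.067), *Pdha1* (0.098), *Dlat* (0.030), *Acadvl* (0.016), *Cpt1a* (0.017) and *Acaa2* (0.037) turned positive. Of all genes, 21.3% were then lower and 23.1% higher. The share of higher calls over all genes was then 52.0%, against 32.5% as deposited. Quantile normalization gave 2 higher and 17 lower members, with *Dld* at 0.0061, *Sucla2* at 0.017 and *Pdha1* at 0.047. Over all 11687 genes it gave 2265 higher and 3125 lower. Limma-voom on recovered fragments, which tested 33 of the 38 genes, gave 4 higher and 13 lower, with *Ogdh* at 0.050, *Dlst* at 0.0062, *Dld* at 0.080, *Suclg1* at 0.030, *Sucla2* at 0.069, *Pdha1* at 0.10, *Dlat* at 0.034 and *Acadvl* at 0.017. Of all 11059 genes in that fit, 2688 were higher and 2440 lower. No filter gave 1 higher and 19 lower members, against 2202 and 3619 of 22248 genes. No variance trend gave 1 and 18, against 1852 and 3822 of 11687. Leaving out 1 library gave 1 to 2 higher and 17 to 21 lower members, *Sucla2* from -0.072 to 0.020, *Pdha1* from -0.059 to 0.037, *Mdh2* from -0.0021 to 0.061 and a *Cpt2* to *Cpt1a* log2 ratio from -0.13 to 0.038. Over all 11675 to 11709 genes tested, these fits gave 1756 to 1860 higher and 3411 to 3698 lower. Deviations of each gene from its group mean correlated at 0.0078 to 0.040 between same-numbered libraries of the 2 groups. Between differently numbered libraries they correlated at -0.052 to 0.035, so the numbers showed no pairing. The fit with the replicate number as a block gave 2 higher and 20 lower members, of which *Dlst* was no longer one (adjusted p = 0.057) and *Pdhb* was added (adjusted p = 0.020). Of all 11687 genes, 1895 were higher and 3813 lower in the block fit. Pseudocounts of 0.1 and 0.5 each left 2 higher and 20 lower members. All genes then gave 1942 and 1946 higher, and 4036 lower with each.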
